A study of Mus musculus with 8 samples.

Results

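The DNA replication and repair genes described here are 43 mouse genes, chosen by name, out of 54965 genes measured by RNA sequencing in 8 kidney libraries. They encode the proteins that license and fire replication origins, unwind and copy the DNA, supply its nucleotides and mend it. Every one of the 43 symbols matched exactly 1 row of the deposited table, so no gene was left out. Of these genes, 30 had a mean of at least 1 FPKM (reads per length of gene and size of library) and entered the test. A comparison of FPKM between genes depends on the annotated gene lengths. The other 13 (Orc1, Cdc6, Gins3, Pola1, Pole, Fen1, Rad51ap1, Brca1, Brca2, Fancd2, Chek1, Blm and Exo1) lay below it and are given by their FPKM and reads.

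The libraries form 4 groups of 2. The knockout I/R group is kidney of UtxPax2 Cre mice 3 days after ischemia-reperfusion (I/R), an injury in which the blood flow of the kidney is stopped and restored. The wild-type I/R group is WT kidney 3 days after the same injury. The knockout and wild-type groups without I/R are kidneys of UtxPax2 Cre and WT mice whose own labels name no operation, while the shared protocol names a sham operation. The sources used here do not state the strain, sex or age of the mice. The knockout is directed at Utx (gene symbol Kdm6a), which encodes a histone H3 lysine 27 demethylase, through a Cre recombinase driven by Pax2, a gene of the nephron and collecting duct lineages. Cells outside those lineages, such as most immune and endothelial cells, would keep the gene. No label ties a library to an animal, so a p-value here measures the spread between libraries alone, which may be technical.

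DNA replication begins in G1, when the origin recognition complex, Cdc6 and Cdt1 load the MCM2-7 ring onto DNA. In S phase Cdc45 and GINS turn that ring into an active helicase, polymerases alpha, delta and epsilon copy the strands behind it, and the sliding clamp PCNA, loaded by RFC, tethers the polymerases. Most of these genes are transcribed in late G1 and S phase under E2F transcription factors and are low in resting cells. The tubule of the adult kidney is largely quiescent, and surviving tubule cells re-enter the cell cycle in the days after ischemic injury.

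Because so many of these genes share E2F control in other settings, their promoters were searched for exact E2F-type letters. RefSeq promoters of 300 bases (250 before to 50 after the transcription start, build GRCm38.p6) were at hand for 36 of the 43 genes. The search took TTTCCCGC, TTTGGCGC, TTTCGCGC and TTTGCCGC on both strands, and 14 of the 36 genes (38.9%) held at least 1 match, against 704 of 27025 genes with such a promoter (2.60%). Overlapping matches were counted separately. A gene with several promoters counted as holding a match if any of them did. The other elements searched on both strands were CCAAT, found in 66.7% of the genes and 41.1% of all, the GC box GGGCGG, found in 66.7% and 38.2%, and the cell cycle homology element (TTTGAA or TTCGAA), found in 19.4% and 21.7%. The promoters of 6 genes that were lower in knockout after I/R are shown as examples, with and without a match. Capitals mark the E2F-type matches. Uhrf1 (chr17:56304063-56304362, plus strand) has 1 match, 185 bases before its start, and a further annotated start of the gene has none. Mcm5 (chr8:75109259-75109558, plus strand) has 2 overlapping matches, Mcm3 (chr1:20820263-20820562, minus strand) has 2 and Mcm6 (chr1:128359656-128359955, minus strand) has 3, of which 2 overlap. Pcna (chr2:132253131-132253430, minus strand) and Rrm2 (chr12:24708004-24708303, plus strand) have none of these letters in the window.
Uhrf1: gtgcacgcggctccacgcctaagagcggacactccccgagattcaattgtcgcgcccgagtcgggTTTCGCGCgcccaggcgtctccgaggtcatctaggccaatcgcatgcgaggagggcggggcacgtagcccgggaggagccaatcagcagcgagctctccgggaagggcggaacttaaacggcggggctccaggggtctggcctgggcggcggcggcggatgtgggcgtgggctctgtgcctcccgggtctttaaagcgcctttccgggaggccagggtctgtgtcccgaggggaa
Mcm5: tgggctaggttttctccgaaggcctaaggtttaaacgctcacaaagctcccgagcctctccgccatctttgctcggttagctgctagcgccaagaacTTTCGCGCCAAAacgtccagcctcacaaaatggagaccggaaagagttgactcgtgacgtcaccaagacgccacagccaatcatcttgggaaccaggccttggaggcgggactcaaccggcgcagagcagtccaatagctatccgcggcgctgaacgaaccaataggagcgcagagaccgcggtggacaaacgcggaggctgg
Mcm3: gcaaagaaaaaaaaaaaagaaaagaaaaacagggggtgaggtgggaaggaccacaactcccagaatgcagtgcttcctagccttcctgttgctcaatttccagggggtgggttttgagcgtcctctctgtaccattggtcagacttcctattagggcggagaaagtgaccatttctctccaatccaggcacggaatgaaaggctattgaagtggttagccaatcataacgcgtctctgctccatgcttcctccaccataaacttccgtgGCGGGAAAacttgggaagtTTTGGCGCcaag
Mcm6: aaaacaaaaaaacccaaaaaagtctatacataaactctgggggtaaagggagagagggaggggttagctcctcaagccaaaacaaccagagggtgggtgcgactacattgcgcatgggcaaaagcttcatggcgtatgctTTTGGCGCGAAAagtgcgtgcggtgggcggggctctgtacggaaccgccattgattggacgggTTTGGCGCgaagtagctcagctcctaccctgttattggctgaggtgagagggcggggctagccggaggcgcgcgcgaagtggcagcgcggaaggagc
Pcna: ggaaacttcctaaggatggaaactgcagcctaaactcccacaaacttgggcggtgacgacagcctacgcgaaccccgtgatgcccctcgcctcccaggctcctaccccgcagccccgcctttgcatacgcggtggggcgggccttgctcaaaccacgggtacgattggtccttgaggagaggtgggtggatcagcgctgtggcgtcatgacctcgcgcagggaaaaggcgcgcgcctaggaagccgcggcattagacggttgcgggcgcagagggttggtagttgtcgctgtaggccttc
Rrm2: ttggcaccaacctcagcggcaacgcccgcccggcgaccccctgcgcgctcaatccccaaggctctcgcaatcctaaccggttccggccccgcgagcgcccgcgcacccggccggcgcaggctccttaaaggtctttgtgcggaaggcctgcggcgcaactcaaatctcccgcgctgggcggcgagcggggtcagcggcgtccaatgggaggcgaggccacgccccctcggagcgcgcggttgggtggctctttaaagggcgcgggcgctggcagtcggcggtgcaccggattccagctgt

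A match is a description of letters and not evidence of a bound site, and no match says only that these letters are absent from the window. The Mcm3 and Mcm6 promoters were chosen for their matches. For Mcm5 and Mcm6 the RefSeq start lies outside the gene as the deposited coordinates give it. The last bases of these windows were found in no annotated transcript of their genes, so the place of these windows relative to the start is uncertain.

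The libraries held 16780542 to 18497835 reads in genes. Kdm6a itself was at 1.59 and 1.83 FPKM in the knockout I/R libraries and 3.00 and 2.97 in the wild-type I/R libraries, and at 1.99 and 1.91 in knockout and 2.57 and 2.94 in wild type without I/R, so the genotypes did not overlap in either treatment. Its difference (knockout minus wild type, log2(FPKM + 1) ± SE) was -0.56 ± 0.10 after I/R (limma, adjusted p = 0.0295) and -0.35 ± 0.10 without it (adjusted p = 0.431). The sources used here do not state which part of the gene is deleted, and reads outside it would still count. All 8 proximal tubule markers, the check of the kidney label, were at 1 FPKM or more in every library. One wild-type library without I/R (replicate 1) stood apart in its blood cell genes: the 5 B cell markers summed to 14.9 FPKM there, against 1.07 to 2.06 in the other 7 libraries.

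The 43 genes together were low without injury and higher after it, and by less in the knockout. Their FPKM summed to 164 and 177 in the knockout I/R libraries and 251 and 255 in the wild-type I/R libraries. Without I/R they summed to 103 and 102 in knockout and 98.6 and 96.0 in wild type. The knockout I/R libraries thus lay between the wild-type I/R libraries and all 4 libraries without I/R, and the sums of the last 4 differed little. Pcna was the highest of the 43 in every library. With 2 libraries in each group, an exact permutation test of such a sum between 2 of the groups could not reach p = 0.05, so none is given.

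**Figure D1:**
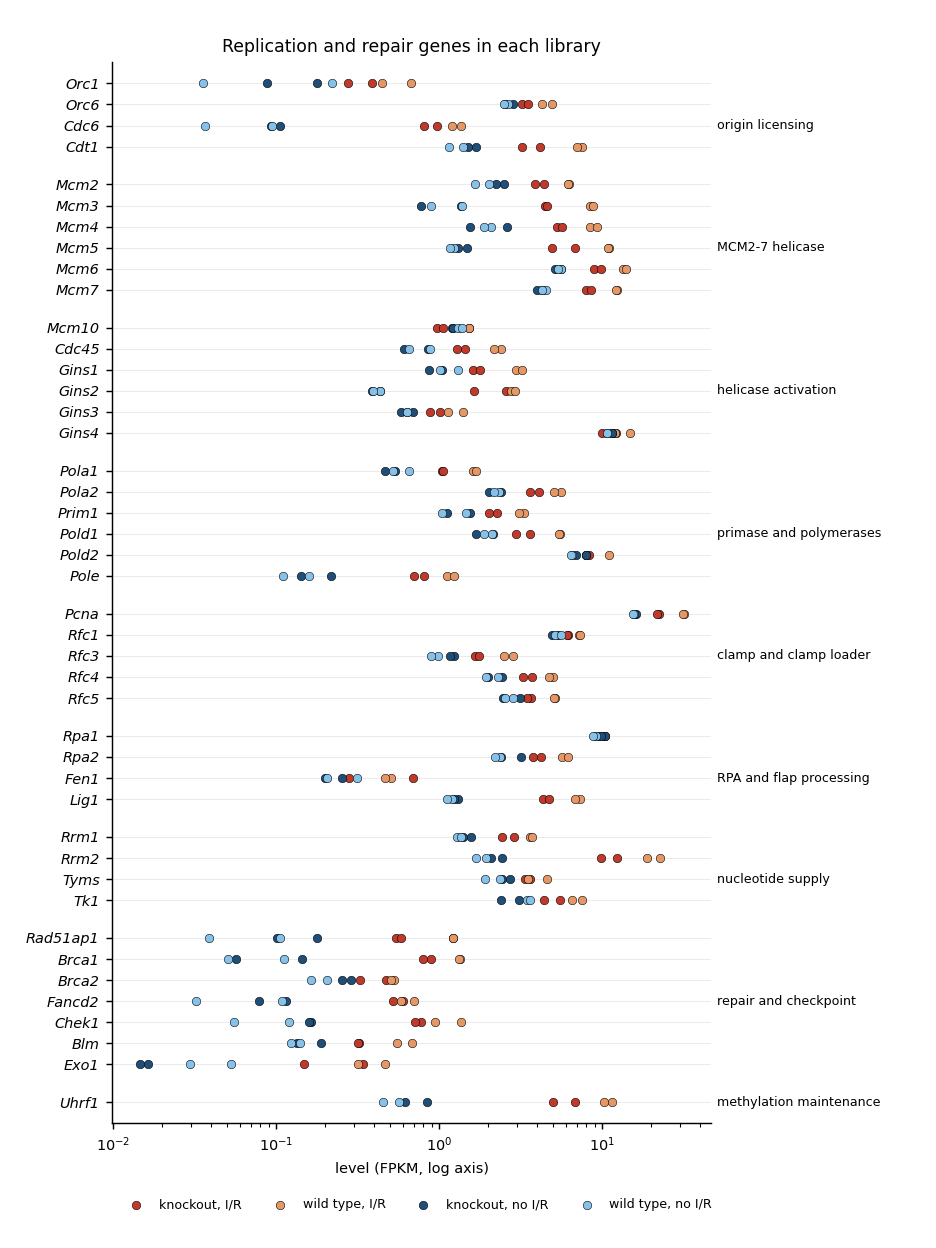
Levels of the 43 genes in each library (FPKM, log axis), grouped by role, with 1 point per library and colors for the 4 groups. For 37 of 43 genes both knockout I/R points lie below both wild-type I/R points, and for all 43 both wild-type I/R points lie above both wild-type points without I/R.

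The first comparisons asked how each genotype's kidney had changed 3 days after I/R. In knockout 18 of the 30 tested genes rose and none fell (limma on log2(FPKM + 1), Benjamini-Hochberg adjusted p under 0.05 over 13304 genes), where 8.95% of all tested genes rose and 11.7% fell. In wild type 27 of the 30 rose and none fell, against 17.4% of all tested genes that rose and 20.1% that fell. The knockout count was 9 without knockout I/R replicate 2, and 9 of the 18 knockout calls and 26 of the 27 wild-type calls held whichever library was left out. The knockout calls that did not hold were those of Mcm2, Mcm4, Gins1, Pola2, Pold1, Pcna, Rfc4, Rrm1 and Tk1. The median log2 difference over the 30 genes was 0.52 in knockout and 0.97 in wild type, against -0.03 over all tested genes in either genotype. Cdc45, Gins2 and Uhrf1 were under 1 FPKM in all 4 libraries without I/R and passed the filter through their levels after it, so these counts describe the tested genes and not all 43. Counted as reads (limma-voom, 16185 genes with a mean of at least 10 reads), all 43 could be tested: 26 rose in knockout, against 11.8% of all genes, and 39 in wild type, against 20.1%. The deposited scale takes most genes as unchanged on average. With the libraries rescaled to an equal sum of FPKM the median of all genes became 0.18 in knockout and 0.22 in wild type. Genes higher and lower then numbered 2782 and 509 in knockout (1191 and 1557 on the deposited scale) and 4842 and 1231 in wild type (2319 and 2673). The median of the tested members exceeded that of all genes by 0.50 in knockout and 0.98 in wild type on the rescaled values, and by 0.55 and 1.00 on the deposited ones.

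Without regard to any test, in knockout 40 of the 43 genes had both I/R libraries above both libraries without I/R, as did 28% of the 20630 genes whose mean reached 0.1 FPKM, and Mcm10, Gins4 and Rpa1 did not. In wild type all 43 had both I/R libraries above both libraries without I/R, as did 32.1% of those genes.

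The next question was whether knockout and wild-type kidneys differed after I/R. Of the 30 tested genes 12 were lower in knockout and none higher, against 3.22% of all tested genes that were lower. These 12 were Cdt1, Mcm2, Mcm3, Mcm5, Mcm6, Mcm7, Gins1, Pold1, Pcna, Lig1, Rrm2 and Uhrf1. The log2 difference was negative for all 30, with a median of -0.45, against 0.01 over all tested genes. On read counts 24 of the 43 were lower in knockout, against 5.65% of all genes. They took in all 12, 8 more tested genes (Cdc45, Mcm4, Mcm10, Rfc3, Rfc5, Rpa2, Rrm1 and Tk1) and 4 below the filter. On the rescaled values 18 of 31 were lower, against 6.81% of all genes, where the genes higher and lower numbered 227 and 911 (371 and 429 on the deposited scale). For 37 of the 43 both knockout I/R libraries lay below both wild-type I/R libraries, as they did for 26.2% of the 20630 genes, and the exceptions were Gins4, Pold2, Fen1, Tyms, Fancd2 and Exo1. The 12 calls rest on all 4 I/R libraries: without knockout I/R replicate 1 or 2, or wild-type I/R replicate 1 or 2, none of the 30 passed, while over all genes the 800 calls became 8, 10, 78 and 46. Without wild-type replicate 1 or with a pseudocount of 0.1 the 12 became 7, and with no filter on low values 3 of 43 passed.

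Without I/R no gene of the 30 differed between knockout and wild type (limma, 0 of 30, and 1 at an unadjusted p under 0.05), and 0.00752% of all tested genes did. At that unadjusted threshold there were 1233 of all 13304 tested genes. On read counts 0 of 43 passed, with 1 at an unadjusted p under 0.05, against 1385 of all 16185 genes (limma-voom). The median log2 difference was 0.05. The interaction, which tests whether the I/R difference itself differed between the genotypes, called none of the 30 genes (22 at an unadjusted p under 0.05), against 0.286% of all tested genes. At an unadjusted p under 0.05 there were 2308 of all 13304 tested genes (limma). On read counts it called 1 of 43, Mcm2, with an interaction of -0.97 ± 0.19 (limma-voom, adjusted p = 0.0487), against 1.02% of all genes. The interaction was negative for all 30 genes by limma, with a median of -0.47, and the smallest adjusted p-values were 0.0722 for Pcna, 0.0748 for Cdt1 and 0.0800 for Rrm2. A smaller I/R difference in knockout was therefore measured in every tested gene but did not pass the limma test of the difference for any single one.

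**Figure D2:**
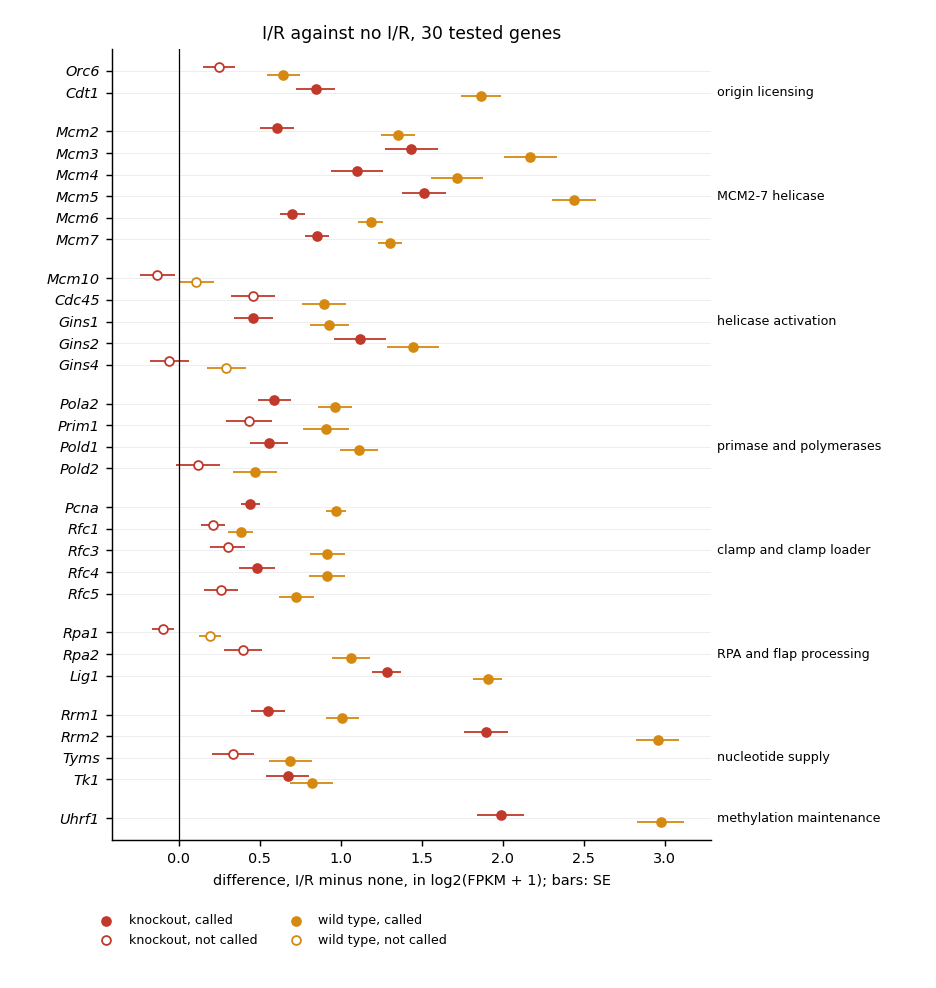
I/R minus no I/R for the 30 tested genes in log2(FPKM + 1), knockout and wild type, points with SE bars, filled where called. Every knockout point lies to the left of its wild-type point, and the open wild-type points are Mcm10, Gins4 and Rpa1.

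Origin licensing was represented by Orc1 and Orc6, subunits of the origin recognition complex, and by the helicase loaders Cdc6 and Cdt1. Cdt1 (ENSMUSG00000006585, chromosome 8, 122568015 to 122573554, plus strand) was at 3.21 and 4.15 FPKM in the knockout I/R libraries and 7.49 and 7.05 in the wild-type I/R libraries, and at 1.5 and 1.69 in knockout and 1.40 and 1.14 in wild type without I/R. The I/R libraries did not overlap between genotypes, and all 4 lay above all libraries without I/R. Cdt1 rose by 0.84 ± 0.12 in knockout (adjusted p = 0.00627) and 1.87 ± 0.12 in wild type (adjusted p = 0.000125), here and below as the log2 difference ± SE. After I/R it was lower in knockout by a difference of -0.83 ± 0.12 (adjusted p = 0.0200). Orc6 (ENSMUSG00000031697, chromosome 8, 85299632 to 85308278, plus strand) was at 3.23 and 3.52 FPKM in the knockout I/R libraries and 4.26 and 4.96 in the wild-type I/R libraries, and at 2.86 and 2.52 in knockout and 2.65 and 2.50 in wild type without I/R. Its I/R difference did not pass in knockout (0.25 ± 0.10, adjusted p = 0.127) and passed in wild type (0.65 ± 0.10, adjusted p = 0.00281). The genotypes after I/R did not pass (-0.36 ± 0.10, adjusted p = 0.0869). Of the exon bases of Orc6 6.93% overlap Vps35 on the other strand, whose mean level was 22.3 FPKM. Cdc6, below the filter, was at 0.812 and 0.977 FPKM in the knockout I/R libraries and 1.37 and 1.2 in the wild-type I/R libraries, and at 0.106 and 0.0934 in knockout and 0.0365 and 0.0946 in wild type without I/R. As counts, Cdc6 was at 75 and 91 reads in the knockout I/R libraries and 129 and 122 in the wild-type I/R libraries, and at 8 and 8 in knockout and 3 and 8 in wild type without I/R. On reads Cdc6 rose in both genotypes, by 3.09 ± 0.45 in knockout and 4.29 ± 0.50 in wild type (limma-voom, adjusted p = 0.00107 and 7.96e-05), among the larger differences of the 43. Orc1 had between 2 and 42 reads in any library and rose on reads in wild type (2.46 ± 0.68, limma-voom, adjusted p = 0.0152).

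All 6 subunits of the MCM2-7 helicase rose in both genotypes, and 5 of the 6, all but Mcm4, were lower in knockout than in wild type after I/R by limma. On reads all 6 were. Their FPKM summed to 35.4 and 40.0 in the knockout I/R libraries and 60.0 and 61.4 in the wild-type I/R libraries, and to 15.9 and 17.0 in knockout and 16.9 and 15.3 in wild type without I/R. Mcm5 (ENSMUSG00000005410, chromosome 8, 75109569 to 75128439, plus strand) was at 4.92 and 6.83 FPKM in the knockout I/R libraries and 11 and 10.9 in the wild-type I/R libraries, and at 1.47 and 1.3 in knockout and 1.24 and 1.16 in wild type without I/R. It had the largest I/R differences of the complex, 1.51 ± 0.13 in knockout and 2.44 ± 0.13 in wild type, and was lower in knockout after I/R (-0.81 ± 0.13, adjusted p = 0.0247). Mcm3 (ENSMUSG00000041859, chromosome 1, 20802968 to 20820312, minus strand) was at 4.48 and 4.61 FPKM in the knockout I/R libraries and 8.39 and 8.76 in the wild-type I/R libraries, and at 0.775 and 1.37 in knockout and 1.39 and 0.890 in wild type without I/R. The knockout I/R libraries of Mcm3 lay close together, between the wild-type I/R libraries and those without I/R, and the difference from wild type after I/R was -0.79 ± 0.16 (adjusted p = 0.0428). Mcm6 (ENSMUSG00000026355, chromosome 1, 128331590 to 128359664, minus strand) was the highest of the subunits in every library, at 8.91 and 9.88 FPKM in the knockout I/R libraries and 13.5 and 14 in the wild-type I/R libraries, and at 5.61 and 5.17 in knockout and 5.6 and 5.38 in wild type without I/R. Its I/R difference was 0.70 ± 0.08 in knockout and 1.18 ± 0.08 in wild type, there the smallest of the complex. It was lower in knockout after I/R (-0.51 ± 0.08, adjusted p = 0.0221).

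Mcm7 (ENSMUSG00000029730, chromosome 5, 138164583 to 138172422, minus strand) was at 7.99 and 8.56 FPKM in the knockout I/R libraries and 12.4 and 12.2 in the wild-type I/R libraries, and at 4.25 and 4 in knockout and 4.54 and 4.26 in wild type without I/R. In each treatment its libraries of 1 genotype lay close together, and the difference after I/R was -0.52 ± 0.07 (adjusted p = 0.0173). Of its exon bases 12.6% overlap other genes, Ap4m1 on the other strand with the most (7.25%), and 23.3% of its 50-base words recur in other genes, so its level is uncertain where counting could not tell them apart. Mcm2 (ENSMUSG00000002870, chromosome 6, 88883474 to 88898780, minus strand) was at 3.85 and 4.43 FPKM in the knockout I/R libraries and 6.30 and 6.21 in the wild-type I/R libraries, and at 2.23 and 2.52 in knockout and 2.02 and 1.67 in wild type without I/R. It was the lowest subunit in FPKM in all 4 I/R libraries, rose least in knockout (0.61 ± 0.10, against 1.35 ± 0.10 in wild type), and differed by -0.50 ± 0.10 after I/R (adjusted p = 0.0421). That rank depends on gene length, 6956 bases for Mcm2 against 3752 for Mcm3 and 3589 for Mcm4. In reads Mcm2 lay above both in the I/R libraries (473 and 549 in knockout, 788 and 839 in wild type). Mcm4 was at 5.29 and 5.69 FPKM in the knockout I/R libraries and 8.41 and 9.30 FPKM in the wild-type I/R libraries, with no overlap, and its difference of -0.60 ± 0.16 did not pass by limma (adjusted p = 0.0757) and passed on reads (-0.69 ± 0.14, limma-voom, adjusted p = 0.0142). The subunits, which assemble as a ring with 1 copy of each, stood closer together in FPKM after I/R. Ratios between subunits depend on the annotated gene lengths. The highest FPKM was 2.31 and 2.23 times the lowest in the knockout I/R libraries and 2.14 and 2.26 times in the wild-type I/R libraries, against 7.24 and 3.98 times in knockout and 4.51 and 6.05 times in wild type without I/R.

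**Figure D3:**
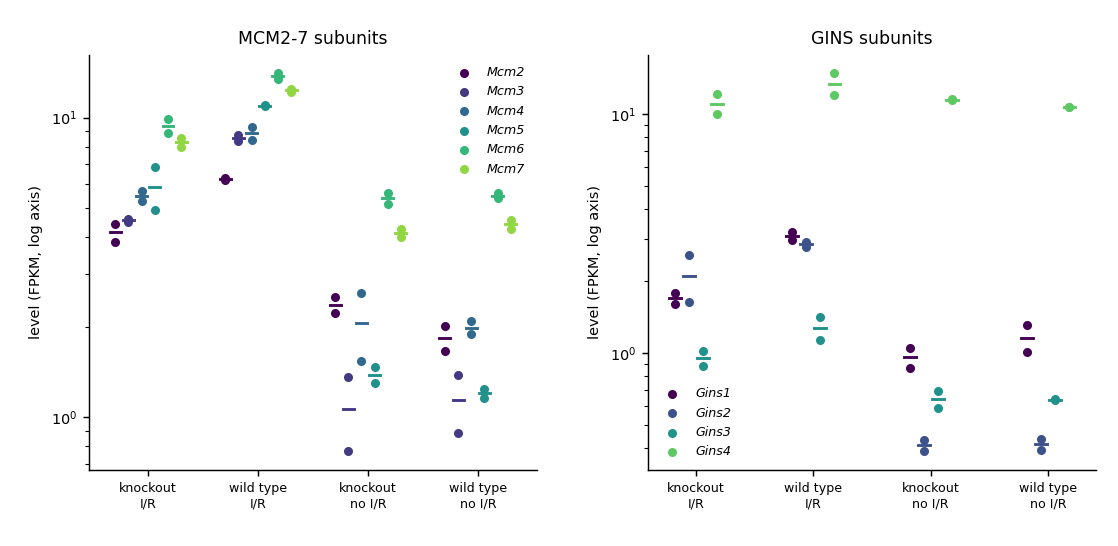
Levels of the MCM2-7 subunits (left) and GINS subunits (right) in each library (FPKM, log axis), with bars at the group means. The MCM2-7 subunits span 2.14-fold to 2.31-fold in the I/R libraries and 3.98-fold to 7.24-fold in those without I/R, while Gins4 stays at 10 to 14.8 FPKM throughout.

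Helicase activation was uneven across its genes. Gins2 rose in both genotypes, Mcm10 and Gins4 passed in neither, and all others of the group that were tested rose in wild type. In knockout Gins1 passed by limma (adjusted p = 0.0387) but not on reads (limma-voom, adjusted p = 0.103), and Cdc45 on reads (adjusted p = 0.0353) but not by limma (adjusted p = 0.0565). Gins2 (ENSMUSG00000031821, chromosome 8, 120578633 to 120589304, minus strand), of the GINS ring that joins the helicase, was at 1.63 and 2.56 FPKM in the knockout I/R libraries and 2.78 and 2.92 in the wild-type I/R libraries, and at 0.388 and 0.432 in knockout and 0.435 and 0.392 in wild type without I/R. All 4 I/R libraries lay far above those without I/R, and the difference was 1.12 ± 0.16 in knockout (adjusted p = 0.00608) and 1.44 ± 0.16 in wild type (adjusted p = 0.000752). Of the 27 genes that rose in wild type, Gins2 had the gain in knockout nearest to wild type, and the genotypes after I/R did not pass (-0.33 ± 0.16, adjusted p = 0.270). Reads of Gins2 are uncertain, since 67.3% of its exon bases overlap Gse1 on the other strand and the strand setting of the counting is not given. Gins1 (ENSMUSG00000027454, chromosome 2, 150905400 to 150931280, plus strand) was at 1.61 and 1.78 FPKM in the knockout I/R libraries and 2.97 and 3.23 in the wild-type I/R libraries, and at 0.867 and 1.05 in knockout and 1.01 and 1.31 in wild type without I/R. It was lower in knockout after I/R (-0.61 ± 0.12, adjusted p = 0.0391), and its I/R difference was 0.46 ± 0.12 in knockout and 0.93 ± 0.12 in wild type. The knockout call of Gins1 was lost without knockout replicate 1 or any 1 of the 4 I/R libraries (0.39 to 0.51, adjusted p up to 0.202).

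Mcm10 (ENSMUSG00000026669, chromosome 2, 4989714 to 5012791, minus strand), which helps to activate the loaded helicase, was at 0.972 and 1.06 FPKM in the knockout I/R libraries and 1.52 and 1.53 in the wild-type I/R libraries, and at 1.21 and 1.21 in knockout and 1.3 and 1.39 in wild type without I/R. Its knockout I/R libraries lay below both knockout libraries without I/R, and its wild-type I/R libraries above both wild-type ones. Neither difference passed, at -0.13 ± 0.11 in knockout (adjusted p = 0.420, and 0.00 on the rescaled values) and 0.11 ± 0.11 in wild type (adjusted p = 0.478). Gins4 was by far the highest GINS gene, between 10 and 14.8 FPKM in all 8 libraries, with overlapping groups. Its 3 partners lay between 0.388 and 3.23 FPKM, so that the highest GINS level was 13.9 and 9.88 times the lowest in the knockout I/R libraries and 10.7 and 10.6 times in the wild-type I/R libraries. Without I/R it was 24.7 to 29.8 times. These ratios depend on the annotated gene lengths, 1349 bases for Gins4 against 4097 for Gins2 and 2709 for Gins3. Cdc45 was at 1.44 and 1.3 FPKM in the knockout I/R libraries and 2.41 and 2.16 FPKM in the wild-type I/R libraries. Of its exon bases 5.96% overlap Ufd1 on the other strand, whose mean level was 10.9 FPKM. Gins3, below the filter, had between 26 and 74 reads in any library and rose on reads in wild type (0.98 ± 0.30, limma-voom, adjusted p = 0.0235).

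Among the primase and polymerase genes, 2 of the 4 tested members, Pola2 and Pold1, rose in knockout, and all 4 in wild type. Pold1 (ENSMUSG00000038644, chromosome 7, 44532746 to 44548849, minus strand), the catalytic subunit of the lagging-strand polymerase delta, was at 2.97 and 3.60 FPKM in the knockout I/R libraries and 5.54 and 5.43 in the wild-type I/R libraries, and at 1.68 and 2.15 in knockout and 2.11 and 1.88 in wild type without I/R. It rose by 0.56 ± 0.12 in knockout (adjusted p = 0.0195) and 1.11 ± 0.12 in wild type (adjusted p = 0.000614), and was lower in knockout after I/R (-0.60 ± 0.12, adjusted p = 0.0379). Pold2 (ENSMUSG00000020471, chromosome 11, 5872180 to 5878292, minus strand), a small subunit of the same polymerase, was at 8.34 and 7.93 FPKM in the knockout I/R libraries and 11 and 8.01 in the wild-type I/R libraries, and at 7.92 and 6.95 in knockout and 6.51 and 6.46 in wild type without I/R. The I/R groups overlapped, 1 of the 2 wild-type I/R libraries lying among those of knockout. Its I/R difference did not pass in knockout (0.12 ± 0.14, adjusted p = 0.574) and passed in wild type (0.47 ± 0.14, adjusted p = 0.0317). The wild-type call was lost without wild-type replicate 1 or 2, wild-type I/R replicate 1, or knockout I/R replicate 1 or 2 (0.27 to 0.48, adjusted p up to 0.115). The genotypes after I/R differed by -0.19 ± 0.14 (adjusted p = 0.465), or 0.02 without wild-type I/R replicate 1. Prim1, the catalytic primase subunit, was at 2.26 and 2.02 FPKM in the knockout I/R libraries and 3.33 and 3.10 FPKM in the wild-type I/R libraries, and Pola2, a subunit of polymerase alpha, at 3.59 and 4.08 FPKM in the knockout I/R libraries and 5.59 and 5.09 FPKM in the wild-type I/R libraries. Neither passed between genotypes after I/R (adjusted p = 0.124 and 0.0729). Pole, the leading-strand polymerase below the filter, was at 0.700 and 0.810 FPKM in the knockout I/R libraries and 1.12 and 1.23 in the wild-type I/R libraries, and at 0.217 and 0.142 in knockout and 0.160 and 0.111 in wild type without I/R. On reads it rose by 2.10 ± 0.29 in knockout and 3.12 ± 0.31 in wild type and was lower in knockout after I/R by a difference of -0.64 ± 0.17 (limma-voom, adjusted p = 0.0369). Pola1, the catalytic subunit of polymerase alpha, was also lower on reads (-0.66 ± 0.14, limma-voom, adjusted p = 0.0196).

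The sliding clamp was the highest and most closely measured of the genes. Pcna (ENSMUSG00000027342, chromosome 2, 132249162 to 132253314, minus strand) was at 22.2 and 21.9 FPKM in the knockout I/R libraries and 31.9 and 31.4 in the wild-type I/R libraries, and at 16.1 and 15.8 in knockout and 15.8 and 15.5 in wild type without I/R. Replicates lay close together, the I/R groups overlapped neither each other nor the libraries without I/R, and the last 4 were nearly alike. Pcna rose by 0.44 ± 0.06 in knockout (adjusted p = 0.00529) and 0.97 ± 0.06 in wild type (adjusted p = 0.000110), and was lower in knockout after I/R (-0.50 ± 0.06, adjusted p = 0.0126). Of its 50-base words 19.1% recur in other genes, chiefly a Pcna pseudogene, so part of its reads may have been assigned elsewhere. Of the 4 genes of the clamp loader RFC taken in here, 1, Rfc4, rose in knockout and all rose in wild type. A further subunit gene, Rfc2, was counted with the other replication factors. The knockout call of Rfc4 was not made on reads (limma-voom, adjusted p = 0.0728) or without knockout replicate 1 or knockout I/R replicate 1 or 2. Rfc1 (ENSMUSG00000029191, chromosome 5, 65261850 to 65335670, minus strand), the large subunit, had the smallest differences, and was at 6.14 and 6.13 FPKM in the knockout I/R libraries and 7.25 and 7.31 in the wild-type I/R libraries, and at 4.94 and 5.40 in knockout and 5.14 and 5.59 in wild type without I/R. Its I/R difference was 0.21 ± 0.08 in knockout (adjusted p = 0.0938) and 0.38 ± 0.08 in wild type (adjusted p = 0.00778). Rfc3, Rfc4 and Rfc5 had differences between genotypes after I/R of -0.43 ± 0.11, -0.39 ± 0.11 and -0.42 ± 0.11, of which none passed by limma (adjusted p = 0.0645, 0.0881 and 0.0688). Part of Rfc4 (12.7% of exon bases) and Rfc5 (10.7%) overlaps genes of the other strand that are expressed at far higher levels.

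Among the genes of single-strand binding and flap processing, Lig1 rose most and Rpa1 had the smallest differences. Lig1 (ENSMUSG00000056394, chromosome 7, 13277283 to 13311433, plus strand), the ligase that joins Okazaki fragments, was at 4.31 and 4.76 FPKM in the knockout I/R libraries and 7.37 and 6.85 in the wild-type I/R libraries, and at 1.31 and 1.23 in knockout and 1.21 and 1.12 in wild type without I/R. It rose by 1.28 ± 0.09 in knockout (adjusted p = 0.000772) and 1.91 ± 0.09 in wild type (adjusted p = 5.23e-05), and was lower in knockout after I/R (-0.55 ± 0.09, adjusted p = 0.0237). Rpa1 (ENSMUSG00000000751, chromosome 11, 75298166 to 75348324, minus strand), the large subunit of replication protein A, which coats single-stranded DNA in repair as well as in replication, was at 9.23 and 9.52 FPKM in the knockout I/R libraries and 10.3 and 10.5 in the wild-type I/R libraries, and at 10.4 and 9.85 in knockout and 9.17 and 8.77 in wild type without I/R. Its I/R libraries lay below those without I/R in knockout and above them in wild type, all within 8.77 to 10.5 FPKM. Neither difference passed, at -0.10 ± 0.07 in knockout (adjusted p = 0.336, and 0.14 on the rescaled values) and 0.19 ± 0.07 in wild type (adjusted p = 0.0589). Its partner Rpa2 had an I/R difference of 0.40 ± 0.12 in knockout (adjusted p = 0.0554) and rose in wild type (1.06 ± 0.12, adjusted p = 0.000735), with an interaction that did not pass (adjusted p = 0.130). Fen1, the flap endonuclease, had 7 to 30 reads in any library, and 84.2% of its exon bases overlap other genes, Gm10143 on the other strand with the most (78.8%), so its level is not interpretable at this depth.

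The largest gain in FPKM among all 43 genes was in nucleotide supply. Rrm2 (ENSMUSG00000020649, chromosome 12, 24708241 to 24714146, plus strand), the S-phase subunit of ribonucleotide reductase, was at 9.89 and 12.4 FPKM in the knockout I/R libraries and 19.0 and 22.8 in the wild-type I/R libraries, and at 2.07 and 2.44 in knockout and 1.93 and 1.70 in wild type without I/R. No library of 1 I/R group overlapped another group. The difference was 1.89 ± 0.14 in knockout (adjusted p = 0.000772) and 2.96 ± 0.14 in wild type (adjusted p = 4.90e-05), and knockout was lower after I/R by a difference of -0.85 ± 0.14 (adjusted p = 0.0228). Its partner Rrm1, the large subunit, which cells also keep outside S phase, was at 2.43 and 2.87 FPKM in the knockout I/R libraries and 3.63 and 3.74 in the wild-type I/R libraries, and at 1.41 and 1.57 in knockout and 1.29 and 1.36 in wild type without I/R. Rrm1 rose in both genotypes (0.55 ± 0.10 in knockout and 1.01 ± 0.10 in wild type), and the genotypes after I/R did not pass by limma (-0.36 ± 0.10, adjusted p = 0.0872) and did on reads (limma-voom, adjusted p = 0.0198). Tyms (ENSMUSG00000025747, chromosome 5, 30058202 to 30073617, minus strand), thymidylate synthase, was at 3.63 and 3.36 FPKM in the knockout I/R libraries and 3.53 and 4.60 in the wild-type I/R libraries, and at 2.70 and 2.43 in knockout and 1.90 and 2.37 in wild type without I/R. The I/R groups of Tyms overlapped, and its I/R difference did not pass in knockout (0.33 ± 0.13, adjusted p = 0.119) and passed in wild type (0.69 ± 0.13, adjusted p = 0.00659). Tk1, thymidine kinase, rose in both, by 0.67 ± 0.13 in knockout and 0.82 ± 0.13 in wild type, and had the interaction nearest to 0 of the 30 genes (-0.15 ± 0.19).

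The 7 repair and checkpoint genes all lay below the filter. Each was nonetheless higher in both I/R libraries than in both libraries without I/R, in knockout and in wild type. Brca1 (ENSMUSG00000017146, chromosome 11, 101488764 to 101551955, minus strand), of homologous recombination, was at 0.797 and 0.895 FPKM in the knockout I/R libraries and 1.35 and 1.32 in the wild-type I/R libraries, and at 0.0568 and 0.143 in knockout and 0.112 and 0.0507 in wild type without I/R. As counts, Brca1 was at 120 and 136 reads in the knockout I/R libraries and 207 and 218 in the wild-type I/R libraries, and at 7 and 20 in knockout and 15 and 7 in wild type without I/R. On reads it rose by 3.14 ± 0.43 in knockout (limma-voom, adjusted p = 0.000839) and 4.08 ± 0.44 in wild type (adjusted p = 5.12e-05), and its difference between genotypes after I/R did not pass (-0.65 ± 0.19, adjusted p = 0.0595). Rad51ap1, of homologous recombination, was at 46 and 50 reads in the knockout I/R libraries and 105 and 113 in the wild-type I/R libraries, and at 7 and 14 in knockout and 8 and 3 in wild type without I/R. It was lower in knockout after I/R by -1.10 ± 0.26 on reads (limma-voom, adjusted p = 0.0240), the most negative value of the 43, and the RecQ helicase gene Blm also was (-0.94 ± 0.24, adjusted p = 0.0356). Brca2, Fancd2 of the Fanconi anemia pathway, the checkpoint kinase gene Chek1 and the nuclease gene Exo1 had differences on reads of -0.38, -0.19, -0.62 and -0.77 between knockout and wild type after I/R, none of which passed (limma-voom, adjusted p = 0.302, 0.703, 0.167 and 0.25). Exo1 had 2 reads in each knockout library and 7 and 4 in wild type without I/R, so its fold after I/R cannot be measured closely.

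Uhrf1 (ENSMUSG00000001228, chromosome 17, 56303321 to 56323486, plus strand), which recruits the maintenance DNA methyltransferase to newly replicated DNA, had the largest I/R differences of the 30 genes. It was at 5.01 and 6.80 FPKM in the knockout I/R libraries and 11.4 and 10.3 in the wild-type I/R libraries, and at 0.617 and 0.845 in knockout and 0.568 and 0.450 in wild type without I/R. It rose by 1.99 ± 0.15 in knockout (adjusted p = 0.000827) and 2.97 ± 0.15 in wild type (adjusted p = 5.23e-05), and was lower in knockout after I/R (-0.79 ± 0.15, adjusted p = 0.0323), with the 2 I/R groups apart. Of its 50-base words 15.4% recur in other genes.

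The gain in knockout can be set against that in wild type gene by gene. For the 27 genes that rose in wild type, the gain in mean FPKM after I/R in knockout was expressed as a percentage of the gain in wild type. The median was 46.3%, and all 27 lay below 100%, between 23.2% for Pold2 and 69.2% for Gins2. With 1 library left out these ends moved widely, Pold2 between 7.13% without knockout replicate 2 and 45.7% without wild-type I/R replicate 1, and Gins2 between 50.1% and 88.3%. Pcna was at 38.1%, Rrm2 at 46.7%, Uhrf1 at 50%, Mcm5 at 46.0% and Cdt1 at 34.7%. These percentages rest on group means of 2 libraries and carry no test of their own. Taking only genes that rose in wild type favors values below 100%, and no such percentage is given for all genes. Of all tested genes, too, fewer rose in knockout (8.95%) than in wild type (17.4%).

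**Figure D4:**
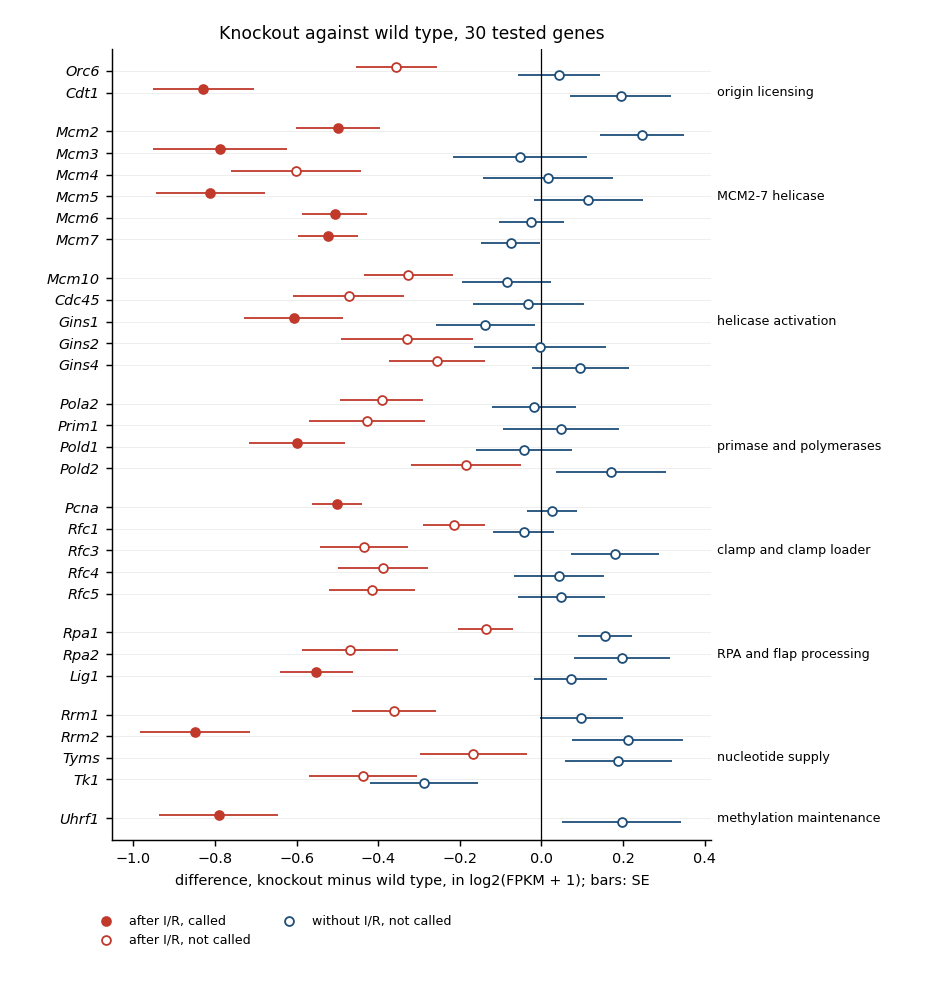
Knockout minus wild type for the 30 tested genes in log2(FPKM + 1), after I/R and without it, points with SE bars, filled where called. All 30 points after I/R lie below 0, of which 12 are filled, while the points without I/R lie on both sides of 0 and none is filled.

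The promoter letters can be set beside these values. Of the 9 tested genes with an E2F-type match, 8 (Cdt1, Mcm3, Mcm5, Mcm6, Mcm7, Pold1, Lig1 and Uhrf1) were lower in knockout after I/R, and the ninth was Rfc3. Of all tested genes 3.22% were lower. Lig1 held a match in 1 of 3 promoters, and Mcm7 and Uhrf1 each in 1 of 2. As given above, the calls between genotypes after I/R rest on every I/R library. Of the 17 tested genes with a promoter and no match, 3 were lower, namely Mcm2, Pcna and Rrm2, and so was Gins1, 1 of 4 without a promoter sequence. The median I/R difference was 0.86 in knockout and 1.87 in wild type over the 9 genes with a match, and 0.43 in knockout and 0.90 in wild type over the 17 without. These are descriptions of genes that were not sampled at random, and Rrm2, whose printed promoter holds no match, had an I/R difference almost equal to that of Uhrf1.

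The wider pathway, in 206 other genes of replication, repair and the cell cycle, moved unevenly. All 19 tested genes of mitosis and the G2/M transition rose in both genotypes, with medians of 1.65 in knockout and 2.21 in wild type. The largest differences in knockout were those of the cyclin gene Ccnb2 (2.10), Mki67 (2.10) and the kinase gene Plk1 (2.07). In wild type they were those of Cdc20 (3.11) and Ube2c (2.78), which work with the anaphase-promoting complex, and of Ccnb2 (2.84). The proliferation marker Mki67 was at 4.49 and 5.70 FPKM in the knockout I/R libraries and 7.03 and 8.29 in the wild-type I/R libraries, and at 0.323 and 0.522 in knockout and 0.379 and 0.240 in wild type without I/R. It did not pass between knockout and wild type after I/R (-0.51 ± 0.15, adjusted p = 0.0888). Of the 19 genes 6 were lower in knockout after I/R (31.6%, against 3.22% of all tested genes). They were led by Ube2c (-0.81), Cdk1 (-0.69) and Birc5 (-0.63). The median of the 19 was -0.51, against -0.45 for the 30 replication and repair genes.

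Other replication factors, 30 of them tested, had medians of 0.12 in knockout and 0.36 in wild type. In knockout 6 rose (20%, against 8.95% of all tested genes) and none fell. In wild type 14 rose (46.7%, against 17.4%) and 2 fell (6.67%, against 20.1%). Those that rose most were Pclaf, which binds PCNA, at 1.43 in knockout and 2.16 in wild type, and the histone chaperone genes Asf1b (1.22 and 1.76) and Chaf1b (0.92 and 1.48). Pclaf (-0.69) and Pold4 (-0.42), a subunit of polymerase delta, were lower in knockout after I/R. Of 12 other nucleotide supply genes, 2 rose (16.7%) and 1 fell (8.33%) in knockout, and 3 rose and 3 fell in wild type (25% each). Of all tested genes 8.95% rose and 11.7% fell in knockout, and 17.4% rose and 20.1% fell in wild type. Ctps, which makes CTP, rose by 0.34 in knockout and 1.16 in wild type and was lower in knockout after I/R (-0.65, adjusted p = 0.0144). The deoxycytidine kinase gene Dck rose by 0.82 in knockout and 1.10 in wild type. The cytidine deaminase gene Cda fell in knockout (-0.36), and the dUTPase gene Dut rose in wild type (0.65). Of 15 G1/S regulators 3 rose (20%, against 8.95%) and none fell in knockout. In wild type 8 rose (53.3%, against 17.4%) and 2 fell (13.3%, against 20.1%). They were led in knockout by Cdkn1a, the gene of the inhibitor p21 (1.03), Rbl1 (0.42) and Cdk6 (0.30), and in wild type by Cdkn1a (1.98), E2f1 (1.41) and Cdk2 (0.79). Cdk6 (-0.38) and Cdk4 (-0.33) were lower in knockout after I/R.

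Other repair genes were taken from lists of their pathways. Across homologous recombination (11 tested), Fanconi anemia (7), mismatch repair (5), base excision (14), nucleotide excision (19), end joining (8) and translesion synthesis (8), 72 genes were tested together. In knockout 2 rose (2.78%, against 8.95% of all tested genes) and none fell, and in wild type 10 rose (13.9%, against 17.4%) and 4 fell, with medians of 0.02 and 0.03. On read counts, which take in all 96 listed genes, 17 rose (17.7%, against 11.8% of all genes) and 1 fell in knockout, and 27 rose (28.1%, against 20.1%) and 4 fell in wild type. By limma those in knockout included Mre11a (0.33) of the double-strand break sensor. In wild type the larger changes were in Apex1 (1.06), the abasic site endonuclease, in Ercc1 (0.63) and Gtf2h2 (-0.59) of nucleotide excision repair, in Msh6 (0.30) of mismatch repair, and in Rbbp8 (0.55), Rad50 (0.50) and Nbn (-0.43) of break processing. Fanca (0.51) and the translesion polymerase genes Polh (0.44) and Rev3l (0.32) also rose, and no end joining gene passed in either genotype by limma (1 of 8 at an unadjusted p under 0.05 in each, and 1 of 10 called on reads in each). None of the 72 was called between knockout and wild type after I/R by limma, against 800 of all 13304 tested genes. At an unadjusted p under 0.05 there were 5 of the 72, against 3226 of the 13304 (limma). On reads 3 of 96 were lower (3.1%, against 5.65% of all genes). Among 12 checkpoint genes 3 rose (25%, against 8.95%) and 1 fell (8.33%, against 11.7%) in knockout. In wild type 4 rose (33.3%, against 17.4%) and 1 fell (8.33%, against 20.1%). They included the histone variant gene H2afx (0.49 in knockout and 1.3 in wild type), Chek2 (0.39 and 0.61), Mdc1 in knockout (0.48) and Rad9a in wild type (0.85).

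**Figure D5:**
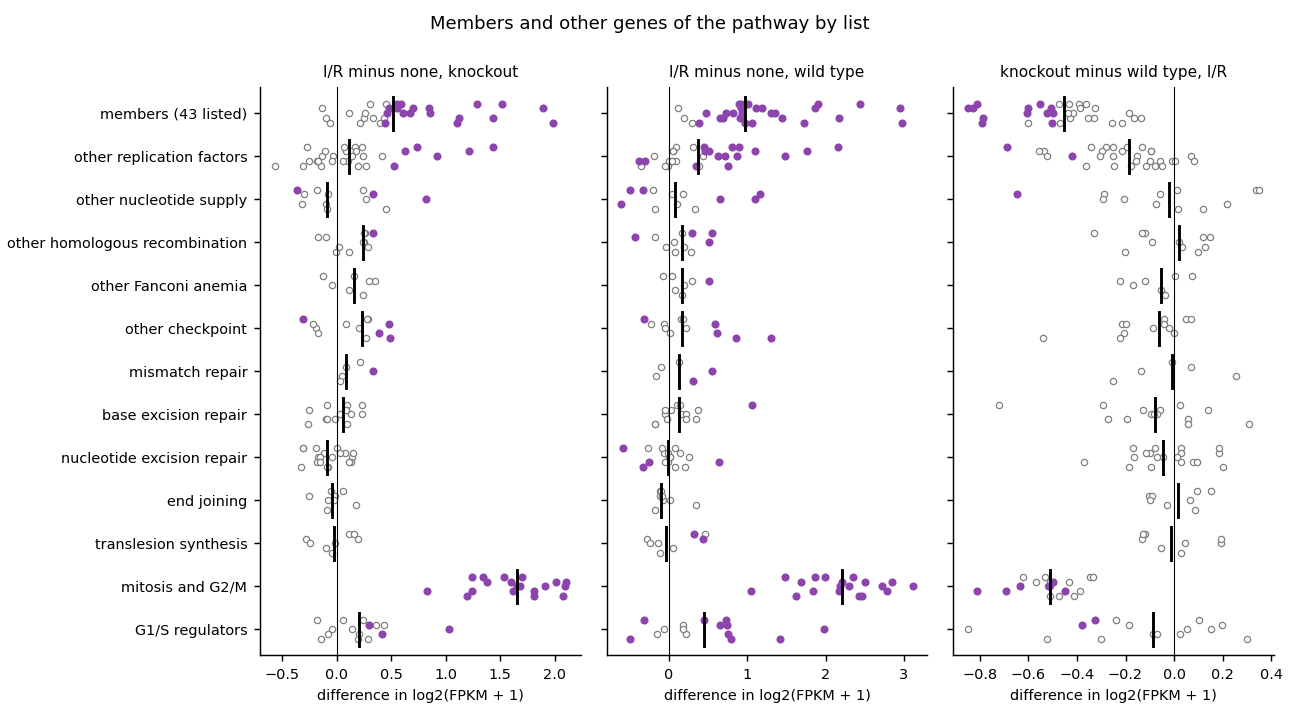
Log2 differences of the tested genes of each list, 1 point per gene, with I/R minus none in knockout (left) and wild type (middle) and knockout minus wild type after I/R (right). Filled points are called and bars are list medians. The 30 tested members and the 19 mitosis genes lie to the right of 0 in the first panels, except Mcm10, Rpa1 and Gins4 in knockout. All of them lie to the left of 0 in the last panel, where the medians are -0.45 for the members and -0.51 for the mitosis genes.

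Whole-kidney RNA was sequenced, so fewer cells of a type and less RNA per cell cannot be told apart, and other cell types moved with injury and genotype. Macrophage markers rose (7 of 8 in each genotype), and their summed level was 257 to 271 FPKM in the knockout I/R libraries and 346 to 386 in the wild-type I/R libraries, against 73.8 to 82.9 in knockout and 66.9 to 111 in wild type without I/R. None of the 8 was at 0 in any library, and 1 was lower in knockout after I/R. Fibroblast markers rose (6 of 6 in each genotype), with sums of 135 to 160 FPKM in the knockout I/R libraries and 189 to 258 in the wild-type I/R libraries, against 17.3 to 17.5 in knockout and 18.1 to 20.9 in wild type, none at 0. All 7 tubular injury markers rose in both genotypes, and 6 of the 7 were lower in knockout after I/R, with sums of 4719 to 5048 FPKM in the knockout I/R libraries and 7780.2 to 7937 in the wild-type I/R libraries, against 689 to 694 in knockout and 441 to 513 in wild type without I/R. Of the 3 distal tubule markers 2 fell in knockout and all 3 in wild type, and all 3 were higher in knockout after I/R (median 1.92, with 1 called in the interaction). They summed to 285 to 288 FPKM in the knockout I/R libraries and 88.4 to 99.1 in the wild-type I/R libraries, against 346 to 472 in knockout and 319.7 to 333 in wild type without I/R. All 5 erythroid markers fell in both genotypes (medians of -2.44 in knockout and -2.82 in wild type), and none was called between genotypes. Their sums were 62.2 to 64.9 FPKM in the knockout I/R libraries and 65.1 to 76.7 in the wild-type I/R libraries, against 349 to 432 in knockout and 402 to 804 in wild type without I/R. Mitochondrial reads made up 7.38% to 7.56% of reads in the knockout I/R libraries and 5.93% to 6.31% in the wild-type I/R libraries, against 8.10% to 8.51% in knockout and 8.19% to 8.36% in wild type without I/R. Of the 8 proximal tubule markers 1 fell in knockout and 6 in wild type, with sums of 2405 to 2528 FPKM in the knockout I/R libraries and 1553 to 1666 in the wild-type I/R libraries, against 2716 to 3221 in knockout and 2829 to 3014 in wild type. The part of these cell types, of the mitochondrial share and of the extent of injury in the differences of the replication and repair genes was not tested.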

How the data were processed

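The deposited table gives FPKM per gene in 8 mouse kidney libraries, with gene coordinates and lengths. Per the labels' protocols, mRNA was purified on poly-T beads and cDNA was made with random primers; no strand-marking step is named. The submitters' processing notes name featureCounts 1.5.0-p3, DESeq2 1.20.0 and build GRCm39. The sources used here name no aligner, strand setting or FPKM formula. The coordinates in the file are those of GRCm38: 54495 genes matched an annotation of that build by identifier and 53585 had identical positions, including 42 of the 43 replication and repair genes (Pola2 differs at both ends).

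The 13304 genes whose mean reached 1 FPKM were tested with limma 3.58.1 (R 4.3.3) on log2(FPKM + 1). A mean per group was fitted to all 8 libraries (4 residual degrees of freedom), with a mean-variance trend, two-sided tests and Benjamini-Hochberg adjustment over all tested genes at 0.05. "Rose", "fell" and "lower" are used for calls. This scale understates changes in low genes. FPKM times gene length was a whole multiple of 1 read for 100% of values within a tolerance of 0.05, so reads were recovered and tested with limma-voom (mean of at least 10 reads). The recovered reads in genes summed to 16780542 to 18497835 per library. The deposited FPKM divide by other library sizes (0.857 to 1.07 times those totals, near median-ratio size factors), at which 3 reads (the floor of a count of 0, counting error only) equal 0.154 to 0.208 FPKM in a gene of 1 kb. Replicates differed by more than sampling noise in a chi-square test of reads in every group (mean of 4.14 to 16.2 per gene), so none were merged. The procedure was tested on simulated data.

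The replication and repair genes, their roles, the other gene lists, the markers and the motifs were chosen with earlier results of these data known. Values in every library are given for the genes with the largest and smallest wild-type I/R difference in each role, for all genes called between genotypes after I/R, and for Pcna, Rrm2 and Brca1. Values of Rrm1, Cdc6 and Pole and the reads of Rad51ap1 were added after they were seen. From each other list up to 3 called genes with the largest differences are named, and some genes of these lists are not reported here. Promoter sequences are RefSeq's, on GRCm38.p6. Exon overlaps and shared 50-base words were counted in the GRCm38 annotation and its transcripts. Alternatives changed the pseudocount, the filter, the scale, the test, the groups fitted and the replicate block, and left out each library in turn.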

Additional observations from a re-analysis of the deposited data

Results flagged for a closer look

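Mcm10 had its knockout I/R libraries below the knockout libraries without I/R and its wild-type I/R libraries above the wild-type ones. Neither I/R difference passed (limma, adjusted p = 0.420 in knockout and 0.478 in wild type), and that in knockout was 0.0024 on rescaled values. The difference between those effects was -0.24 on the log2 scale and did not pass the limma test of the interaction (adjusted p = 0.469).

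Rpa1 had the same order of libraries, with neither I/R difference passing (limma, adjusted p = 0.336 in knockout and 0.0589 in wild type) and a knockout difference of 0.14, the sign of wild type, on rescaled values. Its interaction was -0.29 (limma, adjusted p = 0.196). All its values lay within 8.77 to 10.5 FPKM.

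Cdc20, a mitosis gene named beside the replication and repair genes, had an I/R effect that differed between genotypes by the test of the interaction, at -1.21 ± 0.14 (limma, adjusted p = 0.0450). That call was made in 1 of 8 fits that left out a library (without knockout replicate 2), at -1.31 to -1.10 with adjusted p-values of 0.0455 to 0.192. It was also lost with no filter (adjusted p = 0.0872) or a filter at 0.1 FPKM (0.0689), and made on reads (-1.79 ± 0.36, limma-voom, adjusted p = 0.0489). It was at 9.16 and 10.8 FPKM in the knockout I/R libraries and 15.1 and 14.2 in the wild-type I/R libraries, and at 1.78 and 2.06 in knockout and 0.749 and 0.861 in wild type without I/R. Both knockout libraries without I/R lay above both wild-type ones, and both knockout I/R libraries below both wild-type I/R libraries.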

How the results depend on the processing

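The count of genes lower in knockout than in wild type after I/R (12 of 30) depended most on the processing. It was 7 with a pseudocount of 0.1, 7 with a filter at a mean of 0.1 FPKM, 3 with no filter (both over 43 genes), 24 of 43 with limma-voom on reads, 18 of 31 after rescaling, and 0 to 15 with 1 library left out. In every alternative except leaving out wild-type I/R replicate 1, where Pold2 came to 0.019 (range -0.39 to 0.019 over the libraries), each tested gene kept its negative sign. The count that rose in knockout (18) was 9 to 18 with 1 library left out, 13 with the 2 groups alone and 27 of 31 after rescaling. The count that rose in wild type (27) was 26 to 28 with 1 library left out and 38 or 39 of 43 with the lower filters or reads. The interaction, which needs all 4 groups and was not run with the compared groups alone, called 1 gene of 43 by limma-voom and 0 otherwise. Knockout against wild type without I/R called 0 in every alternative. Signs turned only in differences that were not called. The turns listed here moved by more than 1 SE of the main fit. Smaller turns are left out, such as that of Prim1 between genotypes without I/R (-0.091 to 0.19 with 1 library left out). I/R in knockout gave 0.0024 for Mcm10, 0.18 for Gins4 and 0.14 for Rpa1 after rescaling, and -0.19 to 0.071 for Gins4 with 1 library left out. Knockout against wild type without I/R gave -0.26 to 0.15 for Mcm3, -0.23 to 0.27 for Mcm4 and -0.079 to 0.18 for Rfc5 with 1 library left out, and -0.039 for Pcna after rescaling. The cause of these changes was not tested, except that the read test and the lower filters take in all 43 genes.

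Replicate numbers are shared between groups, but same-numbered libraries did not deviate together (correlations of -0.083 to 0.161), so they are not taken as pairs. With a replicate block the counts were 18 and 27 that rose in knockout and wild type, 8 lower in knockout after I/R, 0 without I/R and 0 in the interaction, and Cdc20 was not called there (adjusted p = 0.0650). With 2 libraries in a group, leaving 1 out assumes that the lone library varies like the others. For the genes under 1 FPKM the depth, often under 30 reads without I/R, limits how closely a fold can be known.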

Other observations

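Several genes of the other lists fell after I/R. They were chosen after their values were seen, from the called genes that fell. Of all tested genes 20.1% fell in wild type and 11.7% in knockout. In wild type the pocket protein gene Rbl2 fell (-0.51 ± 0.09, limma, adjusted p = 0.00462), at 7.85 and 8.29 FPKM in the knockout I/R libraries and 6.55 and 6.17 in the wild-type I/R libraries, and at 8.39 and 9.62 in knockout and 9.03 and 9.87 in wild type without I/R. Rrm2b, the p53-regulated subunit of ribonucleotide reductase, also fell there (-0.61 ± 0.10, adjusted p = 0.00383). Rrm2b was at 3.27 and 3.50 FPKM in the knockout I/R libraries and 2.67 and 2.89 in the wild-type I/R libraries, and at 4.92 and 4 in knockout and 4.65 and 4.89 in wild type without I/R. Its paralog Rrm2 rose in the same libraries. Rrm2b did not pass in knockout (-0.31 ± 0.10, adjusted p = 0.0739), and its interaction did not pass (adjusted p = 0.343). Ccnd1, which encodes cyclin D1, fell in wild type (-0.32 ± 0.09, adjusted p = 0.0248), and Orc4 (-0.39 ± 0.10) and Top1 (-0.30 ± 0.08) were the replication factors that fell there (adjusted p = 0.0206 and 0.0230). Hus1, of the checkpoint clamp, fell in knockout (-0.31 ± 0.07, adjusted p = 0.0306) and in wild type (-0.32 ± 0.07, adjusted p = 0.0153).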
